A study of Homo sapiens with 12 samples.

Results

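The long arm of chromosome 11 was examined in MDA-MB-231 cells through 39 genes that lie between CEP57 and REXO2, at chr11:95790014-114450279 of the GRCh38.p14 build, a stretch of 18.7 Mb in the bands q21 to q23. The 39 genes were chosen by symbol, of 19907 symbols measured, because nearly all of them had been seen to be lower in S134A-GR cells than in wt-GR cells in these libraries, so the difference between the lines is given as a description. Counts of genes past a threshold for it come from the fit over all genes, stand beside the share of all genes, and support nothing about the members. MDA-MB-231 is an established triple-negative breast cancer (TNBC) cell line that expresses the glucocorticoid receptor (GR). RNA-seq compared S134A-GR clone #1, in which CRISPR editing changed Ser134 of both copies of the receptor to alanine, with wt-GR cells, a clone that came through the same transfection without the change. Each line is thus 1 clone, and the mutation and the clone cannot be told apart. All cells were starved for 18 h in steroid-depleted serum, and vehicle or TGFβ1 (10 ng/mL), a cytokine of the tumor microenvironment, was then given for 6 h, which makes 4 groups of 3 replicates.

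Genes that sit side by side on a chromosome usually have separate promoters and unrelated functions. Distal 11q is known as one of the chromosome arms often lost in breast cancer. The 39 genes do not form a pathway. They include ATM, the kinase that responds to DNA double-strand breaks, BIRC2 and BIRC3, the ubiquitin ligases cIAP1 and cIAP2 that restrain cell death, SDHD and DLAT of mitochondrial energy metabolism, and RDX, or radixin, which ties actin to the plasma membrane. Only RNA was measured in these samples, and DNA copy number was not.

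The 12 libraries held 56.4 to 129.8 (in units of 1e6) reads assigned to genes, with a median of 90.4. Values are normalized counts, and a count of 3 reads, taken as the floor, came to 2.15 to 4.89 normalized counts in the different libraries. The transcripts that mark this line were high in each library, with VIM, the mesenchymal filament vimentin, at 419832 to 533198 normalized counts. ESR1, the estrogen receptor that TNBC lacks, was at 0 to 7.32 and the epithelial cadherin CDH1 at 1.05 to 12.5. ERBB2, by contrast, was at 7229 to 10589 and EPCAM at 318 to 1093, so neither was absent. The mean of EPCAM was 1024 in wt-GR and 378 in S134A-GR cells under vehicle, and 1018 and 339 under TGFβ1. NR3C1, which encodes GR and is the edited gene, was present in both lines, with a mean of 11771 normalized counts in wt-GR and 8815 in S134A-GR cells under vehicle. The counts do not show the edited codon and so give no check of it.

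Some neighbouring couples among the 39 genes start back to back, on opposite strands, and share the DNA between their start sites. The sequences upstream of the right-hand gene of each couple are shown because these are the genes whose shift can be compared over 1 shared start region. They are taken from RefSeq (GRCh38.p14) and read 5′ to 3′ on the plus strand. At most 250 bases before the right-hand start are printed, so the longer stretches are shown only in part. Capitals mark GC boxes (GGGCGG on either strand) and CCAAT boxes (CCAAT on either strand).
CCDC82/JRKL, chr11:96389913-96390012: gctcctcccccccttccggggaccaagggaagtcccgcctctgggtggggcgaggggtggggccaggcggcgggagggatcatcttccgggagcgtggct
KBTBD3/AASDHPPT, chr11:106077412-106077661: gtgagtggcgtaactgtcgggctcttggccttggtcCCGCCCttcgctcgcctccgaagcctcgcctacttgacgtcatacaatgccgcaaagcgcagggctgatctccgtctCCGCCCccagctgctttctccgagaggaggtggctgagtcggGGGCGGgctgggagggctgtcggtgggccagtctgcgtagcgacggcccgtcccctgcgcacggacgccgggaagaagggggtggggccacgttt
NPAT/ATM, chr11:108222817-108223066: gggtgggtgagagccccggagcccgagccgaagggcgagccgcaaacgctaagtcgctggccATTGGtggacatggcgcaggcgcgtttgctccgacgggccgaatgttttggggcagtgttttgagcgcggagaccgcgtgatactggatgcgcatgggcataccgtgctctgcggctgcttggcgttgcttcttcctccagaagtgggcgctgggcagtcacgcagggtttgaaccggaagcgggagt

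CCDC82 and JRKL have start sites 101 bases apart, KBTBD3 and AASDHPPT 315 bases apart, and NPAT, a coactivator of histone genes, and ATM 429 bases apart. The printed bases hold 74.0%, 68.0% and 64.4% G and C. Among the printed bases, KBTBD3/AASDHPPT held 3 GC boxes, NPAT/ATM held 1 CCAAT box, and CCDC82/JRKL, printed whole, held neither word. The bases next to KBTBD3 and NPAT, beyond the 250 printed, are not in these counts.

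Under vehicle, 38 of the 39 genes had a fitted value below 0 for the difference between the lines, and the median log2 difference, S134A-GR minus wt-GR, was −0.73. This puts the median gene at 60.1% of its wt-GR level. Under TGFβ1, in 6 other libraries, the median was again −0.73, or 60.3% of the wt-GR level, and again 38 values lay below 0. Over all 18579 genes tested the medians were 0.02 and 0.01. A gene was tested if its reads in the 12 libraries came to 10 or more, and all 39 passed.

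By limma's test with Benjamini-Hochberg adjustment over all genes (FDR under 0.05), 36 of the 39 members had lower levels in S134A-GR under vehicle, where 26.5% of all genes were lower and 25.0% higher. Under TGFβ1 it was 35 of the 39, where 25.7% of all genes were lower and 23.1% higher. None of the 39 was higher at that threshold under either treatment. A log2 difference of −1 or lower was reached by BIRC3, CCDC82, RDX and DLAT under vehicle (4 members, and 4.45% of all genes) and by RDX alone under TGFβ1 (4.58%). The 3 libraries of S134A-GR lay entirely below the 3 of wt-GR for 35 members under vehicle, against 29.1% of all genes, and for 36 under TGFβ1, against 28.6%. These counts follow from how the genes were chosen.

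The shift was present in each S134A-GR library. Taking each library against the mean of wt-GR under vehicle, the median member lay at −0.78, −0.74 and −0.73 in the 3 S134A-GR vehicle libraries and at −0.65, −0.72 and −0.72 in the 3 S134A-GR libraries with TGFβ1. The 6 wt-GR libraries had medians between −0.06 and 0.02, so the medians of the lines did not overlap. The libraries are bulk RNA, in which fewer cells with a transcript and less transcript per cell cannot be told apart. These medians are over the 38 members with a mean of at least 100 normalized counts, since CRYAB was close to the floor.

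**Figure D1:**
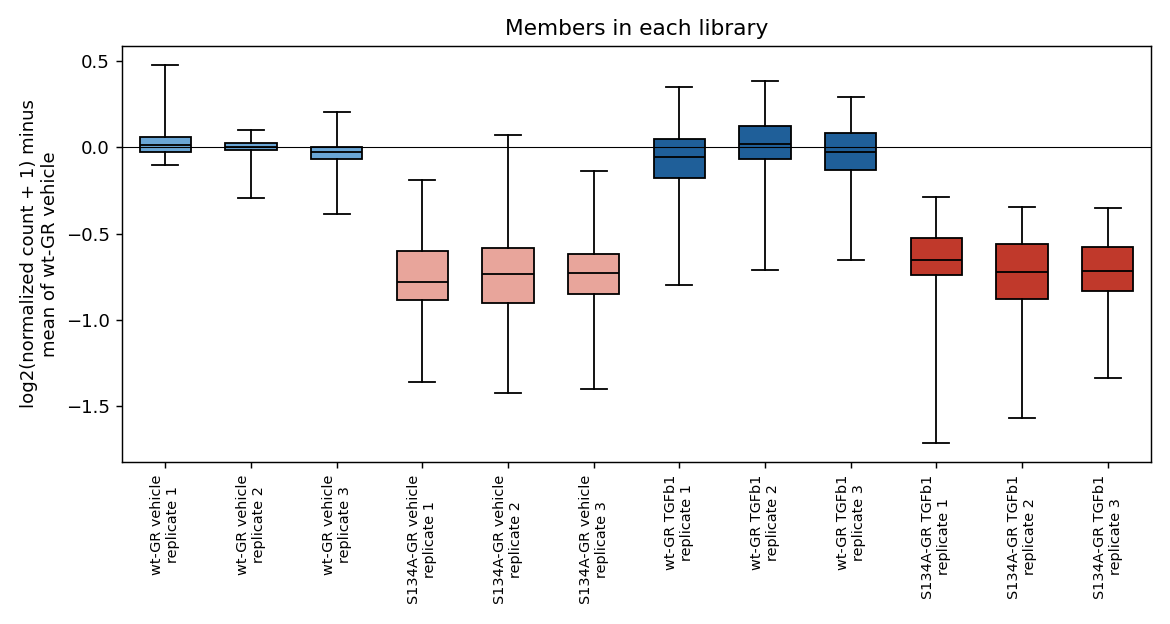
Box plots of 38 members in each of the 12 libraries, as log2(normalized count + 1) minus the mean of the wt-GR vehicle libraries, with boxes from the 25th to the 75th percentile, a line at the median and whiskers to the lowest and highest member. The 6 S134A-GR boxes sit around −0.7 and the 6 wt-GR boxes around 0.

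The members differed among themselves. From the 25th to the 75th percentile the 39 genes lay between −0.89 and −0.59 under vehicle, an interquartile range of 0.30. Under TGFβ1 the range was −0.78 to −0.59, a width of 0.18. Over the members with a mean of at least 100 normalized counts, the widths were 0.29 and 0.19. Choosing genes by their lower level narrows this spread, so it is not set against that of other genes. Within 0.25 of the member median lay 29 of 39 genes under vehicle and 32 under TGFβ1. The median standard error of a single gene's difference was 0.05, so part of the scatter was larger than the error of the fit. The 95% interval of 20 genes under vehicle and of 15 under TGFβ1 left out the member median. It lay above the median under both treatments for 8 genes, below it under both for 5 and across it under both for 17.

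**Figure D2:**
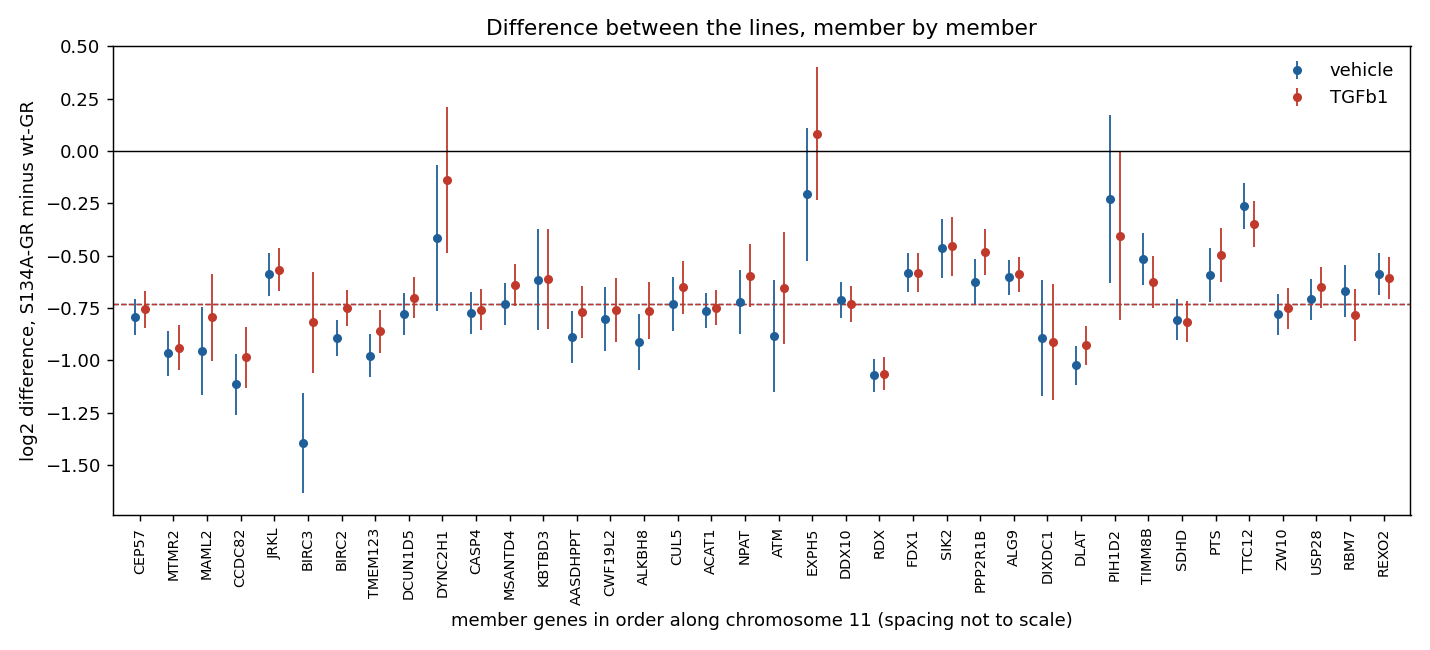
Log2 difference between S134A-GR and wt-GR for 38 members in their order along the chromosome, under vehicle (blue) and TGFβ1 (red), with 95% intervals from limma and the member medians as dashed lines, both at −0.73. BIRC3 is lowest under vehicle at −1.40, and EXPH5, PIH1D2, TTC12 and DYNC2H1 lie nearest to 0. CRYAB is left out because its counts are close to the floor.

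Members of the cell death and inflammation group had a median of −0.94 under vehicle and −0.79 under TGFβ1, and all 4 were lower. BIRC3 encodes cIAP2, a ligase whose gene is induced by NF-κB. It was measured at 722, 680 and 866 normalized counts in wt-GR and at 292, 279 and 283 in S134A-GR cells under vehicle. Under TGFβ1 it was at 432, 458 and 477 in wt-GR and at 228, 252 and 297 in S134A-GR cells. The groups did not overlap under either treatment, and the wt-GR level under TGFβ1 was lower than that under vehicle. S134A-GR cells held 37.7% of the wt-GR level under vehicle, a log2 difference of −1.40 ± 0.11 (SE, n = 3 per group), and 56.8% under TGFβ1, −0.82 ± 0.11. BIRC3 (chr11:102317484-102339403) thus had the largest difference of all members under vehicle and one near the member median under TGFβ1.

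BIRC2, or cIAP1, lies next to BIRC3 and restrains the same pathways. It was at 6985, 7010 and 7038 normalized counts in wt-GR and at 3822, 3641 and 3874 in S134A-GR cells under vehicle. With log2 differences of −0.89 under vehicle and −0.75 under TGFβ1, BIRC2 moved less than its neighbour under vehicle and about as much under TGFβ1. TMEM123, or porimin, a membrane mucin linked to oncotic cell death, was at 50.7% and 55.1% of the wt-GR level. CASP4, the inflammatory caspase that senses cytosolic lipopolysaccharide, was at 58.4% and 59.1%.

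The 7 genes of DNA damage and cell division lay closest together of the groups under vehicle, with log2 differences from −0.88 to −0.71 under vehicle. ATM (chr11:108223067-108369102) was at 10813, 8519 and 6578 normalized counts in wt-GR and at 4423, 4408 and 4947 in S134A-GR cells under vehicle. Its wt-GR libraries spread widely, and the lowest of them was still above all those of S134A-GR. Under TGFβ1 the spread was smaller, with 7350 to 8095 in wt-GR and 4691 to 5317 in S134A-GR. The log2 differences of ATM were −0.88 ± 0.13 and −0.66 ± 0.13. Its partner at the shared start region, NPAT, was at −0.72 and −0.60, so the values of this couple lay 0.16 apart under vehicle and 0.06 apart under TGFβ1.

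The remaining genes of this group were ZW10, a kinetochore protein of the spindle checkpoint, at −0.78 under vehicle, CUL5, a cullin scaffold of ubiquitin ligases, at −0.73, DCUN1D5, a factor of cullin neddylation, at −0.78, USP28, a deubiquitinase, at −0.71, and CEP57, a centrosomal protein, at −0.79. All 7 were lower under both treatments. The exons of CEP57 share 20.9% of their bases with MTMR2 on the opposite strand, and the strand setting of the counting is not given in the sources used here, so reads of these 2 genes may be mixed.

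Genes of mitochondria had a median of −0.68 under vehicle and −0.69 under TGFβ1, and all 6 were lower. DLAT (chr11:112025408-112064404) encodes the E2 subunit of pyruvate dehydrogenase. It was at 8944, 9151 and 8836 normalized counts in wt-GR and at 4606, 4294 and 4339 in S134A-GR cells under vehicle. DLAT was therefore below 50% of wt-GR, at 49.2%, with a log2 difference of −1.02 ± 0.04, and under TGFβ1 at 52.6%. SDHD, a membrane anchor of succinate dehydrogenase, was at 57.2% and 56.7%, and ACAT1, the acetoacetyl-CoA thiolase, at 58.9% and 59.4%. DLAT shares 13.3% and SDHD 11.4% of its exon bases with another coding gene, so reads may be mixed.

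The smaller differences in this group were those of REXO2, an exonuclease that clears short RNA, at 66.4% and 65.6%, of FDX1, the ferredoxin of steroid synthesis and protein lipoylation, at 66.8% and 66.8%, and of TIMM8B, a chaperone of protein import, at 69.8% and 64.7%. FDX1 was one of the 8 genes whose interval lay above the member median under both treatments, with JRKL, EXPH5, SIK2, ALG9, PTS, TTC12 and REXO2. The 5 whose interval lay below it under both were MTMR2, CCDC82, TMEM123, RDX and DLAT. TIMM8B shares 30.1% of its exon bases with a neighbour on the other strand.

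RDX (chr11:110174922-110296614) had nearly the same, large difference under both treatments. It was at 9304, 9251 and 8743 normalized counts in wt-GR and at 4301, 4358 and 4328 in S134A-GR cells under vehicle. With TGFβ1 the values were 8801, 9071 and 8864 in wt-GR and 4414, 4146 and 4232 in S134A-GR. RDX was thus at 47.6% and 47.8% of wt-GR, with log2 differences of −1.07 ± 0.04 and −1.06 ± 0.04, and was the 1 member that passed −1 under TGFβ1.

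RDX was grouped with genes of the cytoskeleton and cilia, among which EXPH5, a gene of vesicle transport, was also placed. The other 4 genes of this group had smaller differences than RDX. The median of the group was −0.26 under vehicle and −0.35 under TGFβ1. TTC12, a factor of axonemal dynein assembly, was at 2371, 2329 and 2212 normalized counts in wt-GR and at 1964, 1918 and 1878 in S134A-GR cells under vehicle. Its groups did not overlap, and it was lower under both treatments, but only to 83.3% and 78.4%. DYNC2H1, the heavy chain of the ciliary dynein, was at 2599, 1752 and 1425 in wt-GR and at 1352, 1244 and 1619 in S134A-GR. These groups overlapped. DYNC2H1 stood at 73.0% of wt-GR under vehicle, a log2 difference of −0.42 ± 0.16, and at 91.0% under TGFβ1, −0.14 ± 0.16. Its value under vehicle passed the FDR threshold, but no longer in 9 of 12 cases with 1 library left out, and that under TGFβ1 did not.

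EXPH5, an effector of Rab27 in vesicle transport, had the highest value of the 38 better measured members under both treatments. It was at 358, 264 and 255 normalized counts in wt-GR and at 226, 264 and 263 in S134A-GR cells under vehicle, and the groups overlapped. Under TGFβ1 it was at 168, 226 and 196 in wt-GR and at 217, 209 and 195 in S134A-GR. The log2 differences were −0.21 ± 0.15 and 0.08 ± 0.15, and neither passed the threshold. PIH1D2, at a mean of 106 normalized counts, was at 85.7% and 74.9% with standard errors of 0.19, and passed under neither treatment. Of its exon bases 36.5% are shared with DLAT and another gene on the other strand.

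**Figure D3:**
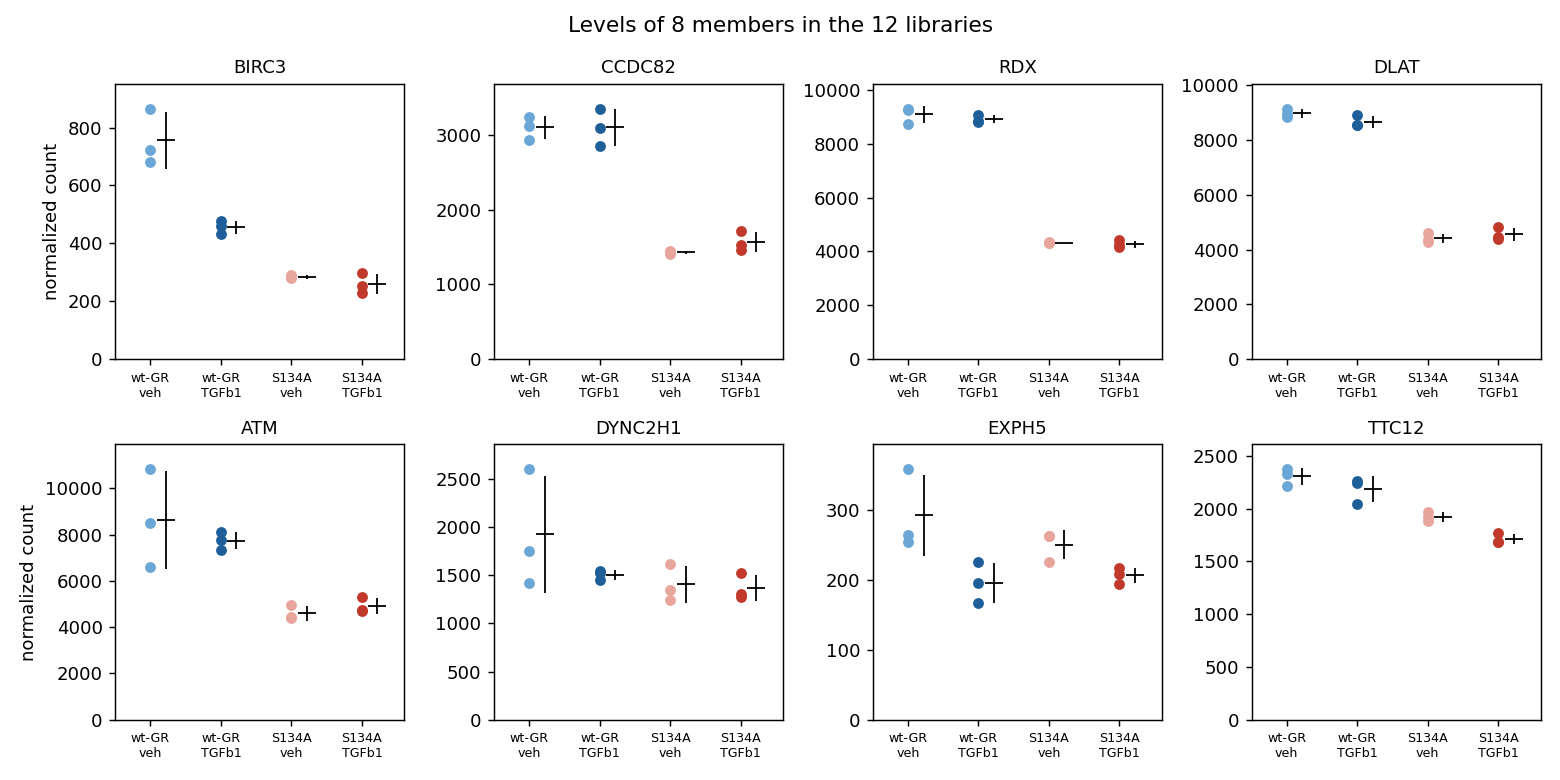
Normalized counts of 8 members in all 12 libraries (points), with the mean and SD of the 3 replicates of each group beside them (bars), on axes that start at 0. BIRC3, CCDC82, RDX, DLAT and ATM separate by line, while DYNC2H1 and EXPH5 overlap between the lines and TTC12 is only slightly lower in S134A-GR.

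By a limit of 3 scaled median absolute deviations from the member median, on the same side under both treatments, none of the 39 genes departed. The limit was 0.67 on the log2 scale under vehicle and 0.46 under TGFβ1. DYNC2H1 and EXPH5 passed it under TGFβ1 and not under vehicle. CRYAB passed it under vehicle and not under TGFβ1. That gene, for alpha-B crystallin, a small heat shock protein, was at 2.11 to 4.21 normalized counts in wt-GR and at 4.05 to 8.48 in S134A-GR cells under vehicle, at or near the floor of 3 reads, so no fold is given for it.

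The signaling genes were all lower, with log2 differences from −0.97 to −0.47 under vehicle. MTMR2, a phosphoinositide phosphatase, was at 51.2% and 52.1% of wt-GR, MAML2, a coactivator of Notch, at 51.2% and 57.6%, and DIXDC1, a protein of Wnt signaling, at 53.9% and 53.4%. PPP2R1B, a scaffold subunit of protein phosphatase 2A, stood at 64.9% and 71.6% and SIK2, a salt-inducible kinase, at 72.1% and 72.9%. SIK2 and PPP2R1B overlap in position, with 1.54% and 2.24% of their exon bases shared.

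All 4 genes of RNA metabolism were lower under both treatments. These were ALKBH8, which modifies the wobble base of tRNA, at −0.91 and −0.76, the spliceosome-associated CWF19L2 at −0.80 and −0.76, the RNA helicase DDX10 at −0.71 and −0.73, and RBM7, a subunit of the nuclear exosome targeting complex, at −0.67 and −0.78. Among the enzymes of biosynthesis, AASDHPPT, which adds phosphopantetheine to carrier proteins, was at −0.89 and −0.77, ALG9, a mannosyltransferase of N-glycan assembly, at −0.60 and −0.59, and PTS, of tetrahydrobiopterin synthesis, at −0.59 and −0.50. Of the exon bases of ALG9, 24.2% are shared with another coding gene, so reads may be mixed.

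CCDC82 (chr11:96352773-96389912), a gene of less known function, was at 3124, 3248 and 2939 normalized counts in wt-GR and at 1446, 1410 and 1434 in S134A-GR cells under vehicle. Its partner JRKL across the shortest shared start region was at 2131, 2272 and 2108 in wt-GR and at 1430, 1444 and 1448 in S134A-GR. CCDC82 was at 46.1% of wt-GR and JRKL at 66.4%, and their 95% intervals did not overlap, with −1.26 to −0.97 for CCDC82 and −0.69 to −0.49 for JRKL. The couple was 0.53 apart on the log2 scale under vehicle and 0.42 under TGFβ1, against 0.27 and 0.16 for KBTBD3 and AASDHPPT. The remaining gene of little known function, MSANTD4, was at 60.1% and 64.1%.

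The value of a member under one treatment went with its value under the other. Over the 38 members with a mean of at least 100, Pearson's r was 0.85 and Spearman's rho 0.92 between vehicle and TGFβ1, which share no library but share the cell lines and the genes' own levels. The same members had a rho of −0.36 between the difference under vehicle and the mean level, and of 0.45 between the difference and the position along the segment. In order of position, the 13 genes from CEP57 to KBTBD3 had a median of −0.79 under vehicle, the 13 from AASDHPPT to PPP2R1B −0.73, and the 13 from ALG9 to REXO2 −0.60. Under TGFβ1 the medians were −0.76, −0.66 and −0.65. Levels differed widely between members: per kilobase of exon (exons merged over transcripts), mean normalized counts ran from 21.6 for EXPH5 to 6491 for TMEM123, CRYAB left aside at 0.985, with a median of 426.

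Genes of the segment that were not chosen also had a median below 0. Of all genes tested, 26.5% were lower and 25.0% higher under vehicle, and 25.7% and 23.1% under TGFβ1. Between CEP57 and REXO2, 43 other genes were tested. Their median was −0.58 under vehicle, with 22 lower and 1 higher at an FDR under 0.05. Under TGFβ1 it was −0.54, with 20 lower and 1 higher. Of the 23 with a mean under 100 normalized counts, 5 were lower and 0 higher under each treatment, and 20 had a mean of at least 100 normalized counts. On the other chromosomes, 32.6% of genes with a mean of at least 100 were lower under vehicle and 31.1% under TGFβ1. The 20 of the segment had a median of −0.61 under vehicle, with 17 lower and 1 higher at an FDR under 0.05. Under TGFβ1 it was −0.54, with 15 lower and 1 higher. Their 25th and 75th percentiles under vehicle were −0.80 and −0.29. The 5 lowest were CASP1, an inflammatory caspase, at −3.09 ± 0.24, MMP1, an interstitial collagenase, at −1.71 ± 0.11, PDGFD, a platelet-derived growth factor, at −1.30 ± 0.10, FDXACB1 at −0.85 ± 0.12 and KDELC2 at −0.81 ± 0.04. CASP1 was at a mean of 479 ± 15.3 normalized counts in wt-GR and 56.3 ± 11.4 in S134A-GR cells under vehicle (SD, n = 3), while CASP4 close to it kept to the common shift. The 5 highest were MMP3, a stromelysin, at 0.65 ± 0.17, ELMOD1 at 0.20 ± 0.14, C11orf71 at −0.03 ± 0.12, C11orf1 at −0.21 ± 0.07 and IL18, a cytokine of the interleukin-1 family, at −0.28 ± 0.07. C11orf71 starts 155 bases from RBM7 on the other strand, and the values of this couple were 0.64 apart under vehicle. Of the exon bases of RBM7, 11.6% are shared with C11orf71 and another gene, so reads may be mixed. The other couples of a member and a gene not chosen lay closer under vehicle. PIH1D2 and C11orf57 were 0.39 apart, and FAM76B and CEP57 0.03 apart.

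The shift had no edge at either end of the segment. Counting genes with a mean of at least 100, the first 5 Mb before CEP57 had a median of −0.75 under vehicle (18 genes, 17 lower). The next 5 Mb had a median of −0.65 (11 genes). On the other chromosomes, 32.6% of genes with such a mean were lower under vehicle. Toward the end of the long arm, the 4 consecutive stretches of 5 Mb beyond REXO2 had medians of −0.57, −0.69, −0.57 and −0.65. The 90 genes beyond the segment had a median of −0.60, with 84 lower. In the other direction the median was −0.53 in the stretch 20 to 25 Mb before the segment and −0.22 in the next (77 genes). It did not then approach 0 steadily, with −0.35 at 30 to 35 Mb (119 genes), −0.40 at both 35 to 40 and 45 to 50 Mb, −0.48 at 50 to 55 Mb, −0.20 at 60 to 65 Mb and −0.26 at 80 to 85 Mb. In the last stretches of the short arm, from 85 to 100 Mb, it was 0.02, 0.01 and 0.16. The remaining stretches, at 55 to 60, 65 to 70, 70 to 75 and 75 to 80 Mb, held 2 to 20 genes each and had medians between −0.18 and 0.34. Under TGFβ1 the 18 genes nearest to CEP57 had a median of −0.69 and the 90 genes beyond REXO2 one of −0.59.

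**Figure D4:**
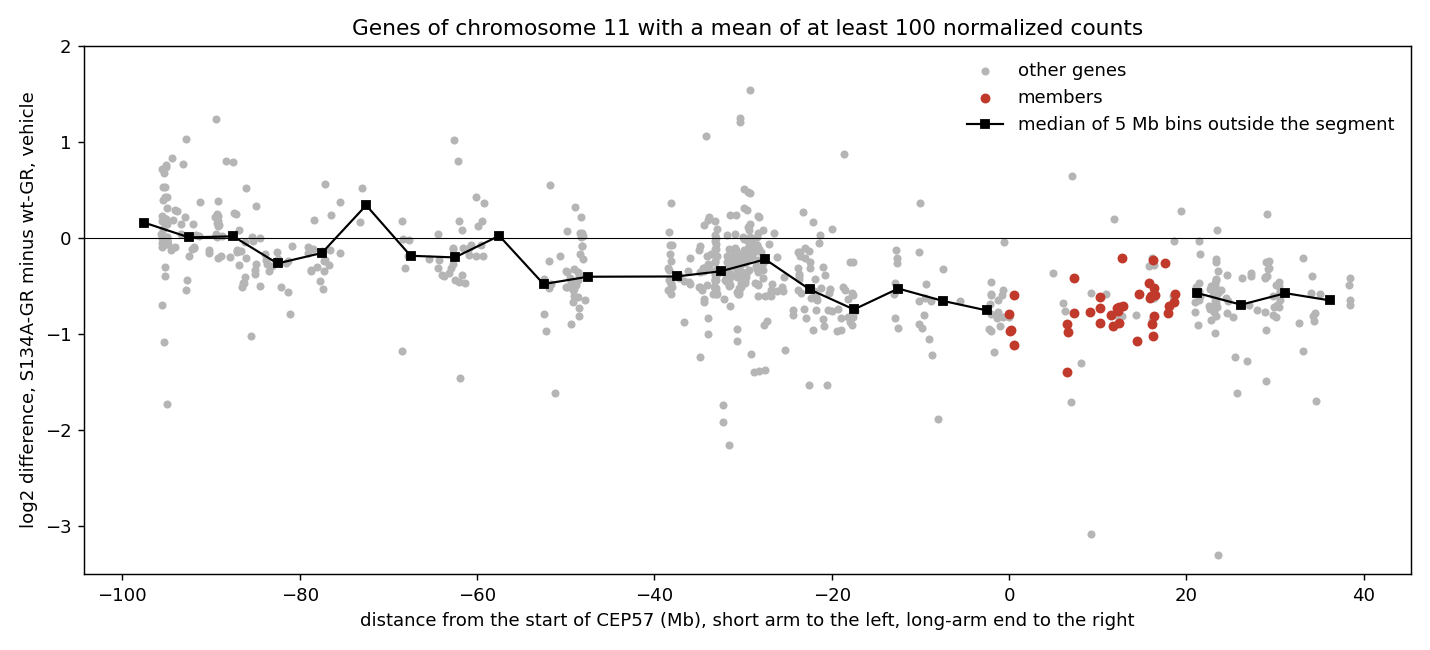
Log2 difference between S134A-GR and wt-GR under vehicle for 675 genes of chromosome 11 with a mean of at least 100 normalized counts, against the distance of each gene's start from the start of CEP57 in Mb. Members are red, other genes grey, and black squares are the medians of 5 Mb bins outside the segment, while 3 genes below −3.5 lie off the axis. The bin medians lie between −0.75 and −0.53 from 25 Mb before the segment to the end of the long arm, and between −0.48 and 0.34 farther toward the end of the short arm.

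Genes whose products work with the members or are related to them, but which lie outside the segment, had medians near 0. Of 51 such genes, all tested, 16 were lower and 15 higher under vehicle (31.4% and 29.4%), against 26.5% and 25.0% of all genes. The median of the 51 was −0.02. Under TGFβ1, 18 were lower and 14 higher (35.3% and 27.5%), against 25.7% and 23.1% of all genes, with a median of 0.02. With DLAT at −1.02, its partners in pyruvate dehydrogenase were at 0.05 for PDHA1, −0.44 for PDHB and −0.40 for DLD. With SDHD at −0.81, SDHA was at −0.01, SDHB at −0.40 and SDHC at 0.13. EZR and MSN, the relatives of RDX, were at −0.19 and −0.23. Of the 51, TRMT112 was the 1 gene on chromosome 11, at −0.25 under vehicle and −0.22 under TGFβ1.

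The partner genes that differed by at least 0.5 at an FDR under 0.05 under both treatments were RAD50, MTREX, USP25, HSPB8 and DYNC2I2. They are named by that rule, and the share of all genes past it was not counted. RAD50, a sensor of DNA breaks that acts with ATM, was lower by limma's adjusted test, at −0.94 ± 0.07 under vehicle (adjusted p = 9.4e-08) and −0.79 ± 0.07 under TGFβ1 (adjusted p = 5.2e-07). MTREX, the exosome helicase that RBM7 works with, listed under its older symbol SKIV2L2, was lower at −0.99 ± 0.07 and −0.90 ± 0.07, and USP25, the relative of USP28, at −0.66 ± 0.04 and −0.62 ± 0.04. HSPB8, a small heat shock protein like CRYAB, was higher at 1.30 ± 0.05 and 1.40 ± 0.05, and DYNC2I2, a chain of the dynein of DYNC2H1, listed as WDR34, was higher at 0.60 ± 0.04 and 0.58 ± 0.04.

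The response to TGFβ1 was not used in choosing the genes and was tested in each line. In wt-GR cells 9 of the 39 genes changed, 4 of them rising, against 11.2% of all genes, and 5 falling, against 9.82%. In S134A-GR cells 8 changed, 6 rising, against 10.0% of all genes, and 2 falling, against 8.69%. The median response was −0.03 in wt-GR and 0.04 in S134A-GR cells, and no member past the threshold changed by 1 or more on the log2 scale. In either direction 21.0% of all genes changed in wt-GR and 18.7% in S134A-GR, so the members' share, 9 and 8 of 39, was near that of all genes.

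The members that changed in both lines were DDX10, REXO2, DCUN1D5 and SIK2. DDX10 rose from 4274, 4274 and 4160 normalized counts to 5394, 5536 and 5103 in wt-GR cells, and from 2568, 2527 and 2672 to 3221, 3193 and 3243 in S134A-GR cells. The groups did not overlap in either line, and the log2 changes were 0.33 ± 0.04 (limma, adjusted p = 2.9e-05) and 0.31 ± 0.04 (adjusted p = 6.3e-05). REXO2 rose by 0.27 ± 0.05 and 0.25 ± 0.05 (adjusted p = 0.00077 and 0.0016 by limma). DCUN1D5 rose by 0.17 ± 0.05 and 0.25 ± 0.05 (adjusted p = 0.018 and 0.0017). SIK2 fell from 3826, 3382 and 3085 to 2734, 2841 and 2672 in wt-GR and from 2474, 2435 and 2516 to 2107, 1965 and 1941 in S134A-GR cells, at log2 changes of −0.31 ± 0.06 and −0.30 ± 0.06 (adjusted p = 0.0030 and 0.0042).

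Past the threshold in wt-GR were also BIRC3, which fell by 0.72 ± 0.11 on the log2 scale (limma, adjusted p = 0.00031), EXPH5, which fell by 0.57 ± 0.15 (adjusted p = 0.014), TIMM8B, which rose by 0.22 ± 0.06 (adjusted p = 0.015), CEP57, which fell by 0.13 ± 0.04 (adjusted p = 0.039), and MSANTD4, which fell by 0.14 ± 0.05 (adjusted p = 0.045). Past it in S134A-GR cells were BIRC2, which rose by 0.21 ± 0.04 (limma, adjusted p = 0.0016), ALKBH8, which rose by 0.26 ± 0.06 (adjusted p = 0.011), MTMR2, which rose by 0.17 ± 0.05 (adjusted p = 0.030), and TTC12, which fell by 0.17 ± 0.05 (adjusted p = 0.035). The count in wt-GR fell from 9 to 5 without wt-GR vehicle replicate 1, without wt-GR vehicle replicate 2 or without wt-GR TGFβ1 replicate 1. When each of the 12 libraries was left out in turn, the calls in wt-GR were lost in 10 of 12 cases for MSANTD4, 6 for CEP57, 4 for TIMM8B, 3 for DCUN1D5 and 2 for EXPH5, and those in S134A-GR in 5 for TTC12 and 4 for MTMR2, all with the direction kept. BIRC3, BIRC2 and ALKBH8 kept theirs in all 12.

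**Figure D5:**
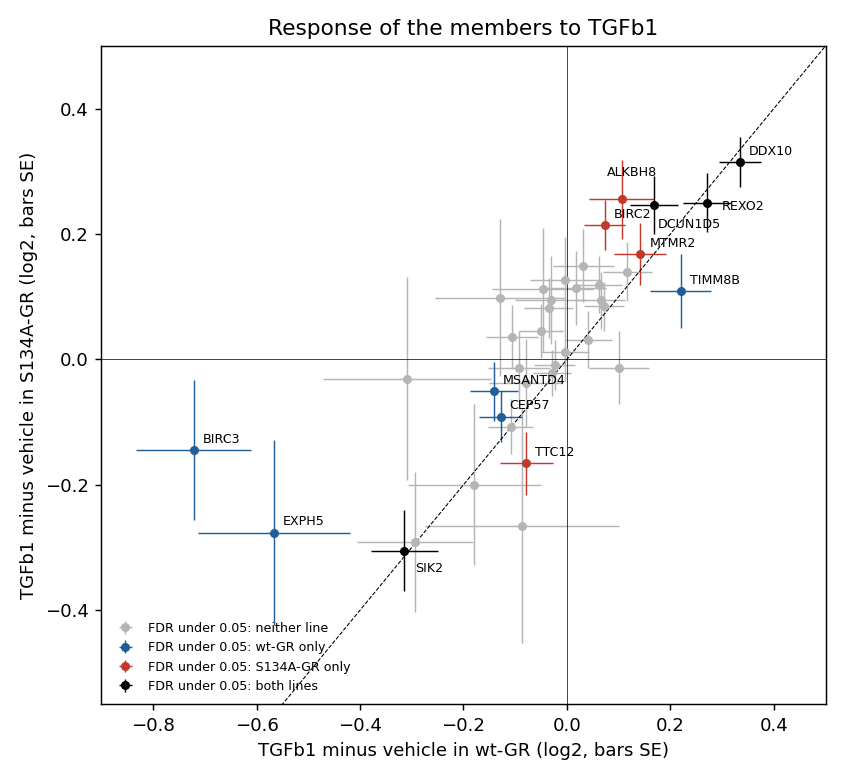
Log2 change with TGFβ1 of 38 members in wt-GR cells (horizontal) and in S134A-GR cells (vertical), with standard errors as bars and the line of equal change dashed. Colors give the line in which a gene passed an FDR of 0.05. DDX10, REXO2, DCUN1D5 and SIK2 passed in both, and BIRC3 lies farthest from the dashed line, at −0.72 in wt-GR and −0.14 in S134A-GR.

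Whether a response differed between the lines was tested as an interaction. This interaction is also the line difference under TGFβ1 minus that under vehicle, and the genes were chosen by both. Choosing genes lower under both may draw it toward 0, so the counts here support nothing about the members. By limma no member passed, against 0.414% of all genes, and edgeR's quasi-likelihood test also called 0. At that share hardly any of 39 genes would be called. By limma 2 of the 39 had an unadjusted p under 0.05 in that test, against 9.30% of all genes. These were BIRC3 and BIRC2. The response of BIRC3 was 0.58 ± 0.16 higher in S134A-GR than in wt-GR cells on the log2 scale, with a 95% interval of 0.24 to 0.92 and an adjusted p of 0.22 by limma. DESeq2's Wald test on the recovered reads gave an adjusted p of 0.029, and in the other alternatives the adjusted p ran from 0.13 to 0.48. The difference for BIRC2 was 0.14 ± 0.06, with an adjusted p of 0.46 by limma. For the member in the middle of the list the 95% interval of the difference reached 0.15 to either side, which is the precision of these libraries.

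The promoters were read for sequence words the genes may share. RefSeq windows of 250 bases before to 50 after the start were at hand for 37 of the 39 genes, and CRYAB and TIMM8B were not in the table. A GC box was in a window of 26 of the 37 members (70.3%) and in 48.3% of 27305 genes, and a CCAAT box in 17 members (45.9%) and in 39.7% of genes. Unlike the members, the 27305 genes were not limited to genes detected in these cells, so no share here is a like comparison. The median content of G and C was 62.3% over the members' windows and 58.7% over all windows. The glucocorticoid receptor half-site TGTTCT, on either strand, was in 3 members, FDX1, MTMR2 and PPP2R1B (8.11%), and in 17.5% of genes. The SMAD word GTCTG, the short element that TGFβ1 effectors bind, was in 22 members (59.5%) and in 50.0% of genes, and the E-box CACGTG in 4 members (10.8%) and 8.77% of genes. The TATA word TATAAA was in FDX1 and MTMR2 (5.41%) and in 14.0% of genes. Of the 3 members with the half-site word, none passed the threshold for TGFβ1 in wt-GR cells, where 21.0% of all genes did. In S134A-GR cells, where 18.7% of all genes passed, MTMR2 did, a call lost in 5 of 21 alternatives. Whether the word bears on the response was not tested, and 3 genes are too few to show it.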

How the data were processed

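RNA was sequenced from 12 libraries, 3 replicates of each of 4 groups. The deposited values are a signal per gene symbol and library, which the authors made as featureCounts counts divided by DESeq2 size factors (DESeq2 1.22.2 and FastQC 0.11.7 per the labels), after Trimmomatic and HISAT2 on hg38. Annotation and strand setting are not given in the sources used here. In each library 100% of values were within 0.1 reads of a whole number of reads, so reads were recovered. Log2(normalized count + 1) was modelled in limma 3.58.1 and R 4.3.3 (4 group means, moderation with a trend, Benjamini-Hochberg adjustment over 18579 genes with at least 10 reads summed). Fold changes are on that scale, which understates changes of low genes. Tested on simulated data of the vehicle comparison, limma called 83.5% of 200 genes changed 1.5-fold and 100% of those changed 2-fold, and 12 unchanged genes. The simulation gave all genes the same fixed spread between replicates and had far fewer changed genes than these data. Its shares are thus not the sensitivity in these libraries.

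The alternatives were edgeR 4.0.16 and DESeq2 1.42.0 on recovered reads, pseudocounts of 0.5 and 16, no filter, filterByExpr, TMM scaling, centring on all genes, a replicate block, only the groups compared, members with a mean of at least 100, and each library left out. Positions and promoters are from RefSeq GRCh38.p14, the build of the files (19187 of 19907 symbols placed, 96.4%), and exon lengths from GENCODE v44. The members and lists were chosen with earlier results of these data known. All 39 members may be named. Members past an FDR of 0.05 for TGFβ1, the 5 highest and 5 lowest other genes of the segment with a mean of at least 100, and partner genes differing by at least 0.5 at an FDR under 0.05 under both treatments are named. No source says that replicates were separate cultures, so p-values measure only the spread between these samples. Floors of 3 reads cover counting error only.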

Additional observations from a re-analysis of the deposited data

How the results depend on the processing

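The member median stayed between −0.75 and −0.71 under vehicle and between −0.74 and −0.70 under TGFβ1 in all alternatives, with 35 or 36 members lower under vehicle and 35 under TGFβ1. Leaving out 1 library, the interquartile range of members ran from 0.25 to 0.34 under vehicle and 0.18 to 0.23 under TGFβ1, the median of other segment genes from −0.66 to −0.60 and −0.59 to −0.48, and the members changed by TGFβ1 in wt-GR from 5 to 11. The line difference of EXPH5 under TGFβ1 ranged from −0.0245, a reversal without wt-GR TGFβ1 replicate 1 (limma, adjusted p = 0.92), to 0.19 without wt-GR TGFβ1 replicate 2, and passed the threshold in none of these. DESeq2 called 1 member, BIRC3, for the difference in response, and the cause was not tested. Calls of BIRC3, DDX10, REXO2 and SIK2 in wt-GR and of ALKBH8, BIRC2, DCUN1D5, DDX10, REXO2 and SIK2 in S134A-GR with TGFβ1 held in each of 21 alternatives that gave a test. Lost at least once were CEP57 (8 of 21), DCUN1D5 (3), EXPH5 (3), MSANTD4 (13) and TIMM8B (5) in wt-GR, MTMR2 (5) and TTC12 (5) in S134A-GR, and the line difference of DYNC2H1 under vehicle (11).

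Replicate numbers do not pair the libraries: same-numbered libraries deviated together with a mean r of 0.00089 (−0.15 to 0.15), and 3 of 12 correlated best with their own number. With a replicate block the members changed by TGFβ1 numbered 7 in wt-GR, with the calls of CEP57 and MSANTD4 lost, and 8 in S134A-GR.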

Other observations

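Beyond the segment, toward the end of the long arm, 3 genes with a mean of at least 100 normalized counts fell far outside the common shift. They were chosen after their values were seen. GRAMD1B, which encodes a lipid transfer protein, was at 357 ± 30.3 normalized counts in wt-GR and at 0.63 ± 1.09 in S134A-GR cells under vehicle (SD, n = 3), below the floor of 3 reads in the latter. TMEM25 was at 318 ± 33.2 and 12.3 ± 0.82, and MCAM, the adhesion molecule CD146, at 12492 ± 175 and 1273 ± 124. The log2 differences of TMEM25 and MCAM were −4.58 ± 0.24 and −3.30 ± 0.06 under vehicle and −5.38 ± 0.24 and −3.62 ± 0.06 under TGFβ1. The most positive value in the same stretch was that of CADM1, a cell adhesion molecule, at 0.28 under vehicle and 0.44 under TGFβ1.

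Chromosome 11 was not alone in having a median away from 0. Under vehicle 26.5% of all genes tested were lower and 25.0% higher at an FDR under 0.05. Over autosomal genes with a mean of at least 100, chromosome 13 had a median log2 difference of −0.54 under vehicle (224 genes, 188 lower), chromosome 11 of −0.36 (678 genes, 472 lower) and chromosome 2 of −0.31 (818 genes). The highest medians were those of chromosome 9, at 0.27 (507 genes, 345 higher), and chromosome 16, at 0.22 (564 genes). Under TGFβ1 the same chromosomes had medians of −0.48, −0.38, −0.27, 0.27 and 0.18.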
